A study of Homo sapiens with 16 samples.

Results

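MYCN and the genes of its dimerisation network were followed in IMR32 cells after knockdown of TPX2, which encodes a mitotic spindle protein that also activates the kinase AURKA. The network was taken as 9 named genes out of the 58787 Ensembl identifiers in the deposited table of raw read counts, found by symbol: MYCN, MYC, MAX, MXI1, MXD3, MXD4, MNT, MLX and MGA. IMR32 is an established neuroblastoma line with amplified MYCN, grown as 1 cell line in all groups. Cells received a non-targeting siRNA (siNTC) or 1 of 3 siRNAs against TPX2 (si45, si46 or si47), with 4 biological replicates each and 16 libraries in all. The table's column names give 48 hours, and no other agent or allele is labelled. By its title, the study looks at TPX2 as a target of translation that depends on the helicase eIF4A.

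MYC family proteins bind DNA as heterodimers with MAX through a basic helix-loop-helix zipper, at a short palindrome called the E-box. MXI1, MXD3, MXD4, MNT and MGA compete for the same partner and repress from the same sites, while MLX pairs with MondoA (MLXIP) and ChREBP (MLXIPL) to read glucose-derived signals. In neuroblastoma with amplified MYCN this factor largely takes the place of MYC, and the balance of activating and repressing MAX dimers is tied to proliferation and differentiation.

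Short windows of the members' own promoters are shown because E-boxes are what the proteins of this network bind. RefSeq windows on GRCh38.p14, each 300 bases long from 250 before to 50 after an annotated start, were held for 8 of the 9 genes (13 windows) and searched on both strands for CACGTG. The canonical E-box was found in 3 genes, MXD4, MNT and MLX, and its capitals mark it here, with distances counted to its first base.
MXD4 (chr4:2262330-2262359, minus strand, E-box 238 bases before the start): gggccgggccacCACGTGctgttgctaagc
MNT (chr17:2401236-2401265, minus strand, E-box 193 bases before the start): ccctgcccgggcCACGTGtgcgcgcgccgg
MLX (chr17:42567038-42567067, plus strand, E-box 50 bases before the start): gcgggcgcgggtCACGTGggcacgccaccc
CACGTG stood in 7.26% of all 35116 RefSeq windows and in at least 1 window of 8.77% of their 27305 genes. In a list of MYC and MYCN targets it was in the windows of 21 of 36 genes. The variant CACGCG, also searched on both strands and found in 11.43% of all windows and 13.5% of genes, was in 3 other members, and in MXD3 its reverse complement is in capitals.
MXD3 (chr5:177312727-177312756, minus strand, variant 8 bases after the start): aaaaggccatttCGCGTGcctccagggtat
Neither E2F form searched (TTTCCCGC and TTTGGCGC, both strands, 2.27% of all windows) was in the MXD3 window, but the second was in windows of MGA and of MYCN, and it is in capitals in that of MYCN.
MYCN (chr2:15940363-15940392, plus strand, E2F letters 176 bases before the start): agcaagtggctTTTGGCGCgaaagccttgg
These matches describe letters in a window, and no binding was measured.

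Libraries held 5318159 to 7864343 counts. The mean TPX2 level fell to 28.0%, 24.9% and 21.8% of that in siNTC under si45, si46 and si47, with no overlap between knockdown and control libraries. Its adjusted p values in edgeR's quasi-likelihood test were 4.37e-11, 6.01e-12 and 3.51e-13 in the same order. The label gives brain and neuroblast as source. All 13 adrenergic neuroblastoma markers passed the low-count filter. Their summed levels were 5804 to 6199 CPM (counts scaled to a common library total) in siNTC and 6216 to 7134 CPM in the knockdowns. In the mean contrast described below 3 of the 13 rose and 1 fell, beside 3.61% and 3.53% of all genes tested. The 5 astrocyte and oligodendrocyte markers summed to at most 1.02 CPM, the 5 immune markers to at most 2.57 CPM and the 5 epithelial markers to at most 9.65 CPM. Of 10 mesenchymal markers 6 were under 1 CPM, the 4 others including VIM and FN1. The mesenchymal sum was 231 to 263 CPM in siNTC and 279 to 330 CPM under si45, with no overlap. It was 260 to 334 CPM under si46 and 242 to 290 CPM under si47. Fibroblast markers summed to 27.0 to 81.4 CPM. The summed adrenergic level was above all controls in all 12 knockdown libraries, as were 1.49% of single genes tested. Of its genes 10 had positive and 3 negative values in the mean contrast. The part of this sum in the results below was not tested. In bulk RNA, fewer cells of a kind and less RNA per cell cannot be told apart.

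MYCN was by far the most abundant network gene. QuantSeq reads start at the 3' end of a transcript and do not grow in number with its length, so levels in CPM were compared between genes. In siNTC, MYCN stood at 965 ± 97.8 CPM (SD, n = 4) and ranked 111 among 14193 genes that passed the low-count filter. Its antisense gene MYCNOS, which is not a member but overlaps it, followed at 219 ± 30.9 CPM. MAX (88.6 ± 10.6 CPM), MLX (86.3 ± 10.7 CPM) and MGA (84.1 ± 7.49 CPM) came next, and the library ranges of neighbours in this order overlapped. MXI1 was lower at 70.0 ± 2.35 CPM, then MXD4 (52.6 ± 3.46 CPM) and MNT (50.3 ± 9.79 CPM), whose ranges overlapped, and MXD3 was lowest of the tested members at 21.7 ± 4.59 CPM. In CPM, MYCN stood at 9.27 to 14.3 times MAX, the obligate partner, in the 4 control libraries and at 9.59 to 15.8 times in the 12 knockdown libraries. MAX thus had 5.23% to 8.29% of the summed level of MYCN, MXI1, MXD3, MXD4, MNT and MGA across the 16 libraries. The 3' ends of MAX, MLX and MXD3 lie within overlapping genes, and that of MYCN does not. How reads of such stretches were assigned is not given in the sources used here, and the part of this in the levels was not tested.

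MYC (ENSG00000136997, chromosome 8, 127735434 to 127741434) did not pass the filter and was not tested. It had 0 to 5 counts per library and 25 in all, against 114066 for MYCN, and 7 of the 16 libraries had 0. A count of 0 allows up to 3 counts, or 0.459 to 0.567 CPM in those libraries, from counting error alone.

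**Figure D1:**
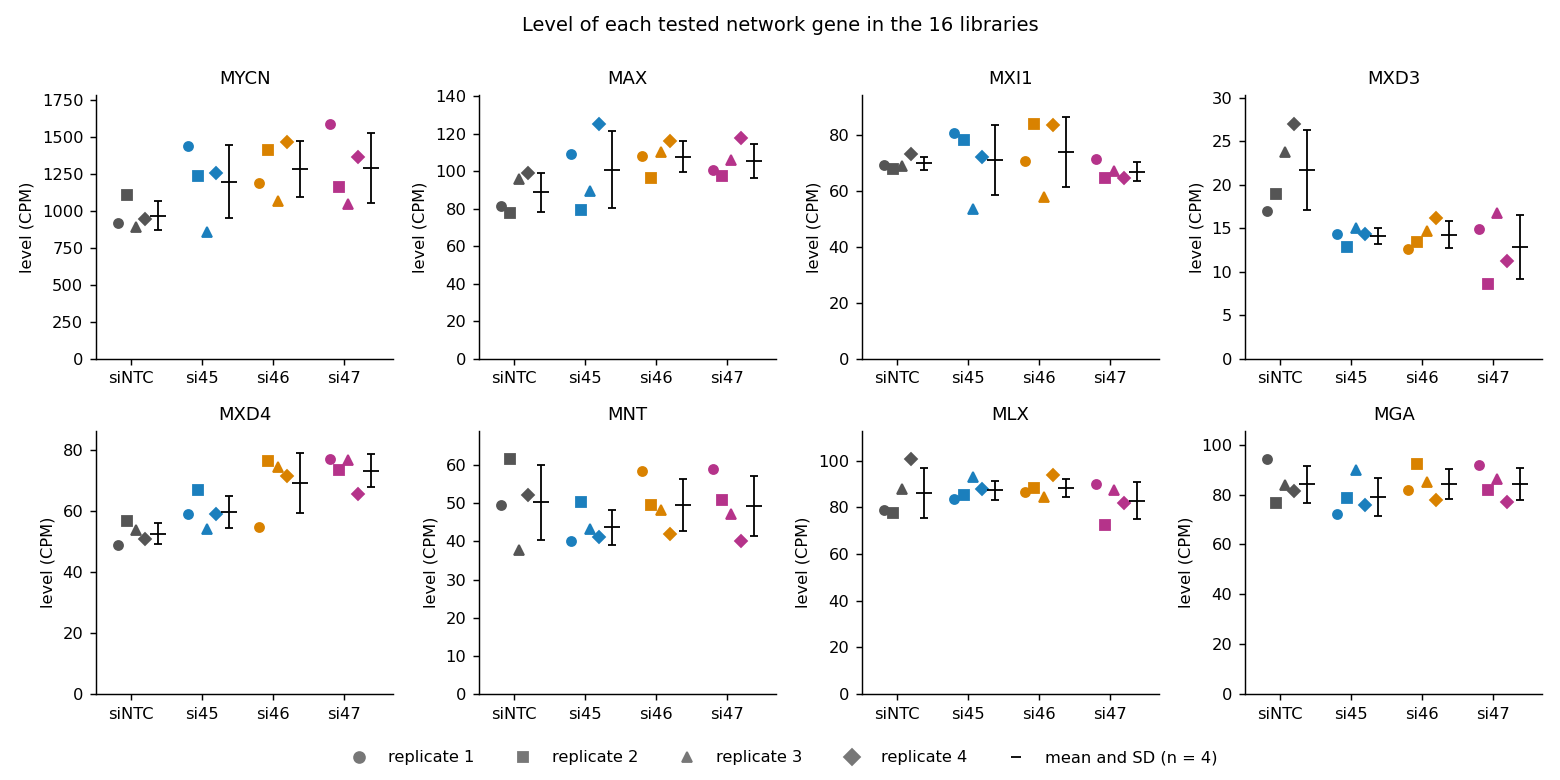
Level in CPM (vertical axis, from 0) of the 8 tested members in each library by siRNA group, with the mean and SD of 4 replicates beside the points. The 12 knockdown libraries for MXD3 lie below all 4 controls, and MXD4 under si47 lies above them.

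Of the 8 tested members, MXD3 fell and MXD4 rose when the average of the 3 siRNAs was set against siNTC, the mean contrast (edgeR's quasi-likelihood test, Benjamini-Hochberg adjusted p under 0.05 over 14193 genes). This call was made for 7.14% of all genes tested, 3.61% higher and 3.53% lower. Under si47 the same 2 members passed, where 9.74% of all genes did (4.91% higher and 4.83% lower). Under si46 only MXD4 passed (3.4% of all genes, 2.14% higher). Under si45 0 members passed, with 1 at an unadjusted p under 0.05 and 0 by DESeq2 or limma-voom (1.34% of all genes). With 8 genes, 2 calls are too few to set the network apart from these shares. The median log2 fold change of the 8 was 0.01 in the mean contrast, beside -0.0011 over all genes tested.

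**Figure D2:**
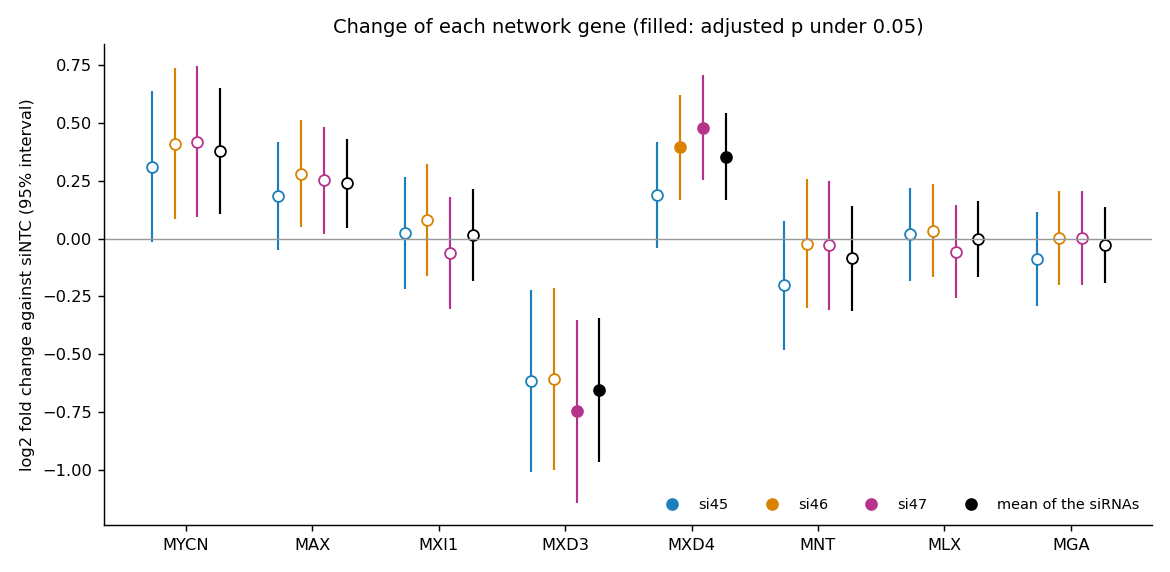
Log2 fold change against siNTC (vertical axis) of each tested member under each siRNA and for their mean, with 95% intervals from the edgeR fit to 16 libraries. Filled points passed an adjusted p under 0.05: MXD4 under si46, si47 and the mean, and MXD3 under si47 and the mean.

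MXD3 (ENSG00000213347, chromosome 5, 177301461 to 177312757, minus strand) encodes a MAX partner that represses E-box genes and is known for expression in S phase. Its level was 17.0, 18.9, 23.8 and 27.1 CPM in siNTC replicates 1 to 4. Under si45 it was 14.3, 12.8, 15.1 and 14.4 CPM, and under si46 12.7, 13.5, 14.6 and 16.2 CPM. Under si47 it was 14.9, 8.53, 16.8 and 11.2 CPM. All 12 knockdown libraries were below all 4 controls, though si47 replicate 3 and siNTC replicate 1 were close. Such separation was seen for 1 of the 8 members and for 1.03% of all genes tested. MXD3 fell by 0.66 on the log2 scale (SE 0.153) in the mean contrast, with an edgeR adjusted p of 0.0054 and group means at 59.2% to 65.6% of siNTC. The log2 fold changes were -0.62 under si45 (edgeR adjusted p = 0.127), -0.61 under si46 (0.0776) and -0.75 under si47 (0.0107). Without siNTC replicate 4, its highest library, the mean contrast gave -0.53 (edgeR adjusted p = 0.0695) and si47 -0.62 (0.0653). Without si47 replicate 2, its lowest, si47 gave -0.60 (0.0615).

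The 3' part of the MXD3 gene overlaps RAB24 on the same strand and PRELID1 on the other, and how reads of overlapping genes were assigned is not given in the sources used here. RAB24 had 10 to 33 counts per library and a mean log2 fold change of -0.68 (SE 0.301, edgeR adjusted p = 0.182). PRELID1, at 101 ± 11.6 CPM in siNTC (SD, n = 4), was at 107, 102 and 104 CPM in the knockdown groups.

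MXD4 (ENSG00000123933, chromosome 4, 2247432 to 2262294, minus strand) encodes another MAX partner of the repressor family, typical of resting and differentiating cells. It stood at 48.9, 56.8, 53.9 and 50.8 CPM in siNTC and at 59.2, 67.0, 54.3 and 59.2 CPM under si45. Under si46 it was at 54.8, 76.4, 74.6 and 71.5 CPM and under si47 at 77.2, 73.7, 77.0 and 65.7 CPM. Of the 12 knockdown libraries 10 were above all controls, the exceptions being si45 replicate 3 and si46 replicate 1. Under si47 all 4 libraries were above the controls, as for 7.41% of all genes tested. MXD4 rose by 0.35 (SE 0.0930) in the mean contrast, by 0.39 (SE 0.112) under si46 and by 0.48 (SE 0.112) under si47, with edgeR adjusted p values of 0.0146, 0.0409 and 0.0042. Under si45 the log2 fold change was 0.19 (95% interval -0.04 to 0.42, edgeR adjusted p = 0.557). The call for the mean was lost without siNTC replicate 1 (edgeR adjusted p = 0.0765) or replicate 4 (0.0622). The si46 call was lost without any 1 of siNTC replicates 1 to 4 (0.135, 0.0501, 0.0730 and 0.114) or of si46 replicates 2 to 4 (0.161, 0.0942 and 0.115), in limma-voom (0.0769), and with replicate number 3 left out of all 4 groups (0.1102).

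Because both genes moved, the ratio of MXD4 to MXD3 within a library shifted with no overlap between control and knockdown libraries. The ratio was built from the members that had passed, so it describes the same values and is not a further test. It was 1.88 to 3 in the 4 control libraries and 3.60 to 8.64 in the 12 knockdown libraries. The mean ratio was 2.5 ± 0.528 for siNTC (SD, n = 4). It was 4.27 ± 0.679 for si45, 4.88 ± 0.632 for si46 and 6.07 ± 1.79 for si47. The sum of MXI1, MXD3, MXD4 and MNT overlapped between groups, with ranges of 185 to 205 CPM in siNTC and 166 to 224 CPM in the knockdowns.

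**Figure D3:**
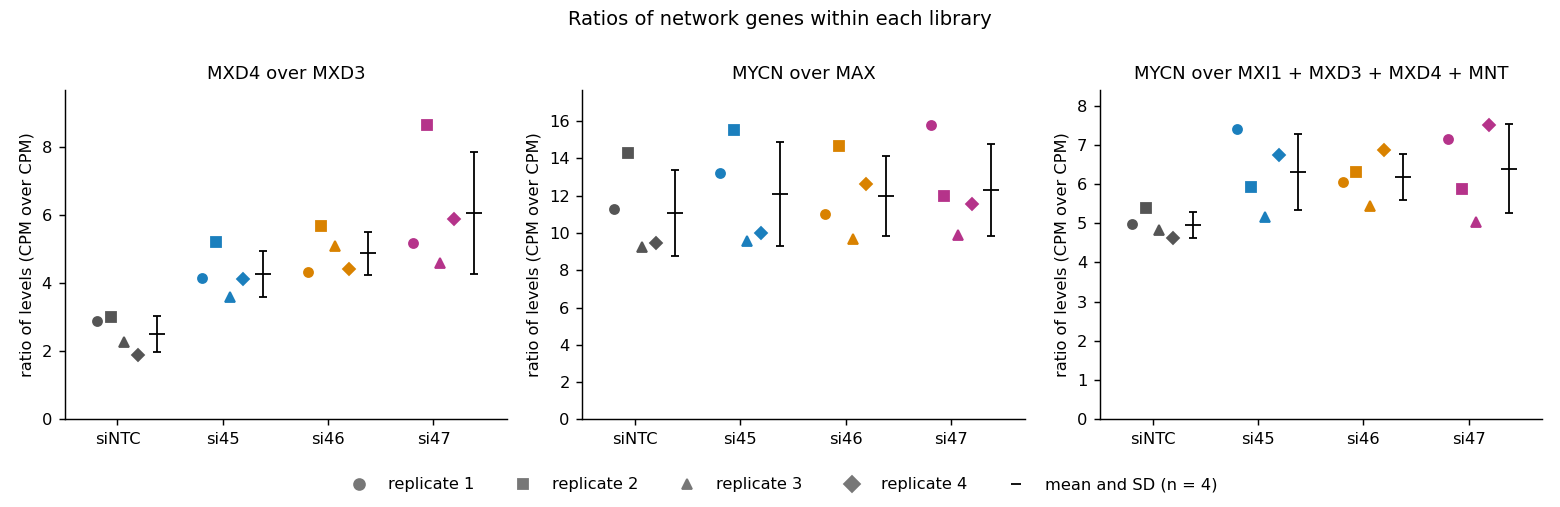
Ratio of levels within each library (vertical axis, CPM over CPM, from 0) for MXD4 over MXD3, MYCN over MAX, and MYCN over the sum of MXI1, MXD3, MXD4 and MNT, with the mean and SD of 4 replicates. MXD4 over MXD3 is at most 3 in siNTC and at least 3.60 in the knockdowns, and MYCN over MAX overlaps between all groups.

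MYCN (ENSG00000134323, chromosome 2, 15940564 to 15947007, plus strand), the amplified oncogene of this line, had higher group means in the knockdowns that did not pass the test. In siNTC it was at 919.7, 1108, 891 and 941 CPM. It was at 1441, 1233, 858 and 1257 CPM under si45, at 1190.4, 1412, 1065 and 1465 CPM under si46, and at 1590.3, 1164, 1048 and 1362 CPM under si47. Of the 12 knockdown libraries 9 were above all controls, and the 3 that were not were replicate 3 of each siRNA. The share of all genes with such a count was not taken, here or for other genes and ratios with fewer than 12. The mean log2 fold change was 0.38 (SE 0.129, 95% interval 0.11 to 0.65), with an unadjusted p of 0.0094 and an adjusted p of 0.0904 in edgeR. Under si45, si46 and si47 it was 0.31, 0.41 and 0.42, with edgeR adjusted p values of 0.469, 0.198 and 0.105.

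This result lay near the threshold and moved with the settings. In the mean contrast MYCN passed with no low-count filter (log2 fold change 0.38, edgeR adjusted p = 0.0082), and without replicate 3 of si45 (0.42, 0.0066), of si46 (0.41, 0.0429) or of si47 (0.41, 0.0474). With replicate number 3 left out of all 4 groups, an alternative added after the values were seen, it was 0.44 (edgeR adjusted p = 0.0011). Under si45 that alternative gave 0.40 (edgeR adjusted p = 0.0305), under si46 0.45 (0.0095) and under si47 0.47 (0.0029). MYCN passed under si46 and si47 when only the groups compared were fitted (edgeR adjusted p = 0.0066 and 0.0127) and with no low-count filter (0.0343 and 0.0152). MYCN also passed without si45 replicate 3, under si46 (0.0454) and si47 (0.0198), and without si47 replicate 3 under si47 (0.0443). Over 25 alternatives of the mean contrast the log2 fold change ran from 0.34 to 0.46 and the edgeR, DESeq2 or limma-voom adjusted p from 0.0011 to 0.232. In that contrast MYCN passed in only 3 of the 16 fits that each left out a library, and in 3 of 9 other settings. Each of those 3 fits left out the lowest MYCN library of its group. The replicate block, given below, was among the settings passed. MYCN did not pass in DESeq2, in limma-voom or with other size factors.

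The antisense MYCNOS (chromosome 2, 15921037 to 15942249) overlaps the first part of MYCN on the opposite strand. It was at 175 to 304 CPM under si45, 242 to 309 CPM under si46 and 207 to 283 CPM under si47, against 182 to 248 CPM in siNTC. In the mean contrast MYCNOS had 0.18 on the log2 scale (SE 0.119, edgeR adjusted p = 0.447). Whether the counting used strand is not given in the sources used here, so reads of the shared stretch cannot be told apart. That stretch holds the annotated start of both genes and the 3' end of neither, and reads within it were not counted apart.

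MAX (ENSG00000125952, chromosome 14, 65006174 to 65102695, minus strand), the common partner, was at 81.6, 77.6, 96.1 and 99.2 CPM in siNTC and at 109, 79.5, 89.5 and 125 CPM under si45. It was at 108, 96.2, 110.1 and 116 CPM under si46 and at 101, 97.2, 106 and 118 CPM under si47. Of the 12 knockdown libraries 8 were above all controls, a count not taken over all genes, and 4 lay within their range. The mean log2 fold change of 0.24 (SE 0.0949, 95% interval 0.05 to 0.43) did not pass (unadjusted p = 0.0164, adjusted p = 0.128 in edgeR). The 3' part of MAX overlaps FNTB on the opposite strand, which stood at 18.3 ± 1.76 CPM in siNTC (SD, n = 4). FNTB was above all controls in 8 of 12 knockdown libraries too, and reads of the shared stretch cannot be told apart. MYCN over MAX was above all controls in 3 of 12 knockdown libraries, and MYCN over the sum of MXI1, MXD3, MXD4 and MNT in 10 of 12.

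MYCN and MAX each had the same replicate number at an extreme in every group. MYCN was lowest in replicate 3 in 4 of 4 groups. MAX was lowest in replicate 2 and highest in replicate 4 in 4 of 4 groups. The same replicate number was lowest in all 4 groups for 4.85% of the 14193 genes, and it was replicate 3 for 2.06%. The labels do not say that a number marks a shared day or batch. TPX2 in the knockdown groups was highest in replicate 3 in 3 of 3 groups, and the part of this in the MYCN values was not tested.

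**Figure D4:**
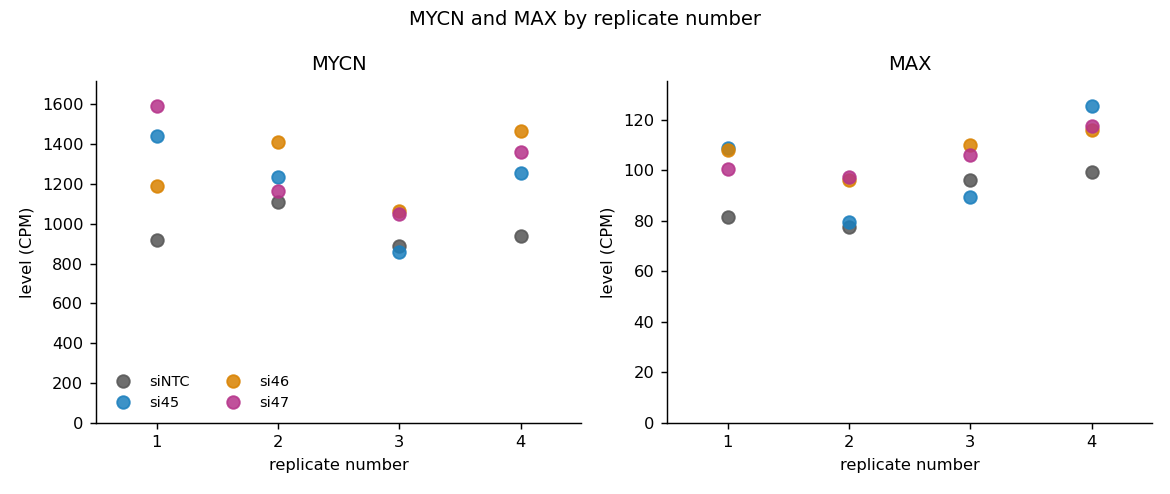
MYCN (left) and MAX (right) level in CPM (vertical axis, from 0) against replicate number (horizontal axis), 1 point per library and 1 colour per siRNA. In each group MYCN is lowest in replicate 3 and MAX is lowest in replicate 2 and highest in replicate 4.

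The 4 other members showed no call under any siRNA in edgeR, DESeq2 or limma-voom. MXI1 (ENSG00000119950, chromosome 10, 110207605 to 110287365), a MAX partner that represses, ranged from 68.0 to 73.4 CPM in siNTC and from 53.4 to 84.2 CPM in the knockdowns. Its mean log2 fold change was 0.01 (95% interval -0.18 to 0.21). Its lowest libraries were replicate 3 of si45 (53.4 CPM) and of si46 (57.9 CPM), the replicate in which MYCN was lowest too.

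MNT (ENSG00000070444, chromosome 17, 2384060 to 2401118), the broadly expressed antagonist of MYC, ranged from 37.8 to 61.6 CPM in siNTC, wide enough to hold all 12 knockdown libraries. Its mean log2 fold change was -0.08 (95% interval -0.31 to 0.14). MGA (ENSG00000174197, chromosome 15, 41621224 to 41773081), a large protein with a T-box beside its helix-loop-helix domain, was at 76.5 to 94.3 CPM in siNTC and 72.3 to 92.2 CPM in the knockdowns. Its value was -0.03 (-0.19 to 0.14).

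MLX (ENSG00000108788, chromosome 17, 42567068 to 42573239), the partner of the Mondo proteins, was at 77.7 to 101 CPM in siNTC and 72.4 to 93.7 CPM in the knockdowns. Its mean log2 fold change was -0.0010 (95% interval -0.17 to 0.16). The end of MLX overlaps the end of PSMC3IP on the opposite strand. PSMC3IP, named for this overlap, fell by 0.41 (edgeR adjusted p = 0.0020) from 88.9 ± 4.75 CPM in siNTC (SD, n = 4).

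No member passed the test between siRNAs. By edgeR 0 of 8 passed for si46 against si45 (0 at an unadjusted p under 0.05), for si47 against si45 (1 unadjusted) and for si47 against si46 (0 unadjusted), and DESeq2 and limma-voom gave 0 each. Of all genes tested 0.0282%, 0.169% and 0.0493% passed. The 1 was MXD4, higher under si47 than si45 by 0.29 (95% interval 0.07 to 0.52, edgeR adjusted p = 0.298), so its passing under si47 and not si45 is no shown difference. For MYCN the differences were 0.10 (-0.23 to 0.43), 0.11 (-0.22 to 0.44) and 0.01 (-0.32 to 0.34).

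The genes most like MYCN across the 16 libraries were sought among 9679 genes with a mean count of at least 50, by Pearson's r of log2 CPM. The 4 highest were MRPL32 (a mitochondrial ribosomal protein, r = 0.94), HNRNPF (an RNA-binding splicing factor, 0.93), OCRL (an inositol phosphatase, 0.93) and PFN1 (an actin-binding protein, 0.92). The 2 lowest were CPLX1 (a synaptic release factor, -0.92) and RAD1 (a DNA damage checkpoint protein, -0.92). Within groups, after the group means were subtracted, the 6 values were 0.92, 0.94, 0.91, 0.91, -0.88 and -0.92. None of these 6 genes passed in the mean contrast, with edgeR adjusted p values from 0.0531 for CPLX1 to 0.203 for MRPL32. They were picked for their r, and the libraries share depth and replicate numbers.

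The rest of the network and the factors around it were read from 9 lists. The wider network (MYCL, MXD1, MLXIP, MLXIPL and MYCNOS) had 0 of 5 calls in the mean contrast by edgeR (1 at an unadjusted p under 0.05, 0 by DESeq2 or limma-voom). MLXIPL, which encodes ChREBP, stood at 6.24 ± 1.18 CPM (SD, n = 4) in siNTC and had a log2 fold change of -0.58 (edgeR adjusted p = 0.178), and MLXIP one of -0.14 (0.336).

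Of 19 factors that act on MYCN protein turnover 1 was higher and 4 were lower in the mean contrast, where 3.61% and 3.53% of all genes did so. FBXW7, the substrate receptor of the ubiquitin ligase that marks MYC proteins for degradation, was at 119 to 149 CPM in siNTC. It was at 159.8 to 181 CPM under si45, 179 to 207 CPM under si46 and 199.9 to 271 CPM under si47, so all 12 knockdown libraries were above all controls (1.49% of all genes tested). FBXW7 rose by 0.38, 0.53 and 0.83 under si45, si46 and si47, with edgeR adjusted p values of 0.0272, 0.000505 and 1.25e-07. Its level was higher under si47 than under si45 by 0.45 (95% interval 0.26 to 0.64, edgeR adjusted p = 0.0242).

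AURKA, the kinase that TPX2 activates and that shields MYCN protein from FBXW7, fell by 0.45 (SE 0.120, edgeR adjusted p = 0.0278). In 11 of 12 knockdown libraries AURKA was lower than in any control, and its call was lost without siNTC replicate 1, 2 or 4 (0.0750, 0.0812 and 0.119). CDK1, which phosphorylates MYCN ahead of its degradation, fell by 0.50 (edgeR adjusted p = 3.27e-05), and CIP2A, an inhibitor of the phosphatase PP2A that stabilises MYC, fell by 0.46 (0.000171). Both were lower in 12 of 12 knockdown libraries and kept their calls in each of the 16 fits without 1 library. STUB1, a chaperone-linked ubiquitin ligase, fell by 0.42 (edgeR adjusted p = 0.0157), a call lost without siNTC replicate 1 (0.120) or 3 (0.0518). The median of the 19 was -0.09. Several of these genes also belong to mitotic programs, and MYCN protein was not measured.

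The next 3 lists had 1 call each in the mean contrast, a share near the 7.14% of all genes called. Among 16 cofactors that bind MYC proteins TOP2A, a topoisomerase abundant in G2 and mitosis, fell by 0.65 (SE 0.138, edgeR adjusted p = 0.0108). Of the 17 genes of the SIN3 and HDAC complex that MXD proteins recruit, 1 changed. SIN3A, its scaffold, fell by 0.31 (edgeR adjusted p = 0.0178), from 109 to 134 CPM in siNTC to 82.8 to 123 CPM in the knockdowns. The SIN3A call was lost without siNTC replicate 2, 3 or 4 (0.05003, 0.107 and 0.0654). Of 14 genes of PRC1.6, the Polycomb complex that holds MGA, TFDP2 rose by 0.24 (edgeR adjusted p = 0.0461), a call lost in limma-voom, with no low-count filter, with replicate number 3 left out and in 9 of 16 fits without 1 library. Of the 16 germline genes that PRC1.6 represses, 1 was expressed enough to test, TDRKH, with a log2 fold change of 0.03 (edgeR adjusted p = 0.965). RYBP, another PRC1.6 subunit, had 0.20 (0.0723) and was above all controls in 12 of 12 knockdown libraries.

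Of 46 MYC and MYCN target genes 45 were tested, with 2 higher and 1 lower in the mean contrast and a median of -0.01. That is near the shares of all genes called higher (3.61%) and lower (3.53%). SLC29A2, a nucleoside transporter, fell by 0.66 (edgeR adjusted p = 5.41e-05). ODC1, the first enzyme of polyamine synthesis, rose by 0.35 (0.0216) and EIF4A1, the helicase of the translation initiation complex, by 0.47 (0.0462). The call for ODC1 was lost without siNTC replicate 2, 3 or 4 (0.0796, 0.0589 and 0.0787), and that for EIF4A1 in 12 of 16 fits without 1 library, in DESeq2 and in limma-voom. Without 1 library the count ran from 0 to 3 higher and 1 to 4 lower. Over all genes those fits gave 336 to 695 higher and 291 to 693 lower. With replicate number 3 left out of all groups the list had 5 higher and 5 lower of 45. All genes then gave 670 higher and 666 lower of 14343. The nearness to the shares of all genes was read in the main fit only.

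Of 7 targets of MLX and MondoA 6 were tested, and 2 rose, where 3.61% of all genes did. The 6 had positive values in the mean contrast, as did 7075 of all 14193 genes. Their median was 0.51, beside -0.0011 over all genes. The list was chosen with earlier results of these data known, so these values describe it and test nothing. ARRDC3, an arrestin-domain adaptor, rose by 0.64 (SE 0.109, edgeR adjusted p = 0.000177). Its controls averaged 45.6 ± 5.49 CPM (SD, n = 4), and si45, si46 and si47 averaged 63.4 ± 10.6, 74.1 ± 10.7 and 75.4 ± 9.47 CPM. TXNIP, the thioredoxin-binding sensor of glucose supply and the best known target, rose by 0.39 (SE 0.104, edgeR adjusted p = 0.0170). Its call was lost without siNTC replicate 1 (0.112) or 3 (0.0927), and with replicate number 3 left out of all groups. KLF10 had 0.62 (0.0785).

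Of 13 genes on the short arm of chromosome 2 near or beyond MYCN, 10 were tested, with 2 higher and 1 lower, beside 3.61% and 3.53% of all genes. These were ODC1, RAD51AP2 and RRM2, a subunit of ribonucleotide reductase that fell by 0.32 (edgeR adjusted p = 0.0114). The RRM2 call was lost without siNTC replicate 3 (0.107) or 4 (0.0525). RAD51AP2 had 0 to 2 counts in the controls and 0 to 24 in the knockdowns, and its call was lost without siNTC replicate 2 (0.0680) or 3 (0.0621). The median of the 10 was -0.01.

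**Figure D5:**
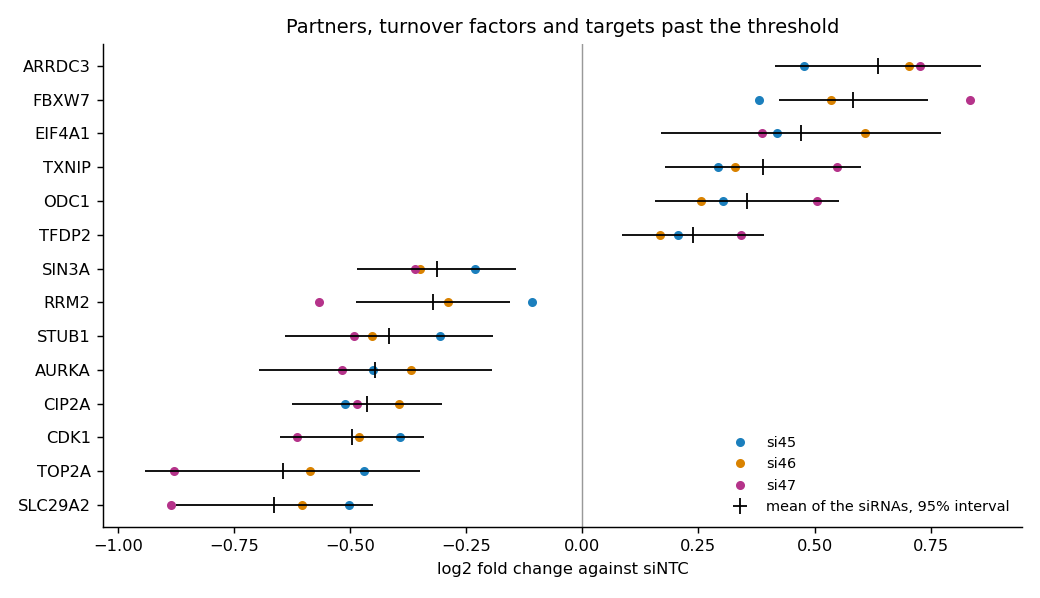
Log2 fold change against siNTC (horizontal axis) of the list genes past an adjusted p of 0.05 in the mean contrast, with points for each siRNA and the mean with its 95% interval. RAD51AP2 is not drawn because its controls had at most 2 counts, and FBXW7 and ARRDC3 lie farthest to the right.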

How the data were processed

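The authors deposited raw counts per Ensembl gene for 16 libraries, with no normalization. Per the labels' protocols, a QuantSeq kit from Lexogen, which primes at transcript ends, was used with single-end sequencing. Per the submitters' processing notes, the tools included STAR 2.7.2b and FastQC 0.11.7 and the build was GRCh38. The annotation, strand use and handling of duplicates are not given in the sources used here. The floor given for MYC covers counting error only, while the 95% intervals come from the edgeR fit and include the spread between libraries. Symbols matched 58434 of 58787 identifiers, and positions came from GENCODE release 29. Mitochondrial genes were not analysed here.

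The test on counts was edgeR 4.0.16, run under R 4.3.3 (filterByExpr with a minimum count of 10 and total of 15, TMM, robust quasi-likelihood fit of 4 group means over 16 libraries). p-values were adjusted by Benjamini-Hochberg over the 14193 genes tested in each contrast, with a threshold of 0.05. The 3 siRNA comparisons share the same 4 controls. The SE is the log2 fold change divided by the square root of F. CPM use TMM library sizes. In simulated data, with changed genes drawn at random from all those tested, edgeR was run on the mean contrast. It recovered 37.7% of genes changed by 0.5 on the log2 scale (1 false call among 13948 genes). Of those changed by 1 it recovered 78.5% (12 false calls among 13931).

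The genes named were the 9 members, TPX2 and AURKA, up to 3 genes with the lowest p from each list, any list gene past the threshold where a list had at most 8, and the 6 genes most like MYCN. RAB24, PRELID1, PSMC3IP and FNTB were added because they overlap members. Members and lists were chosen with earlier results of these data known. Deviations from the group means of same-numbered libraries correlated over 0.1 in 4 of 4 pairs for si45 and si47 (r = 0.120 to 0.242). They did so in 3 of 4 for si45 and si46 (0.072 to 0.247) and for si46 and si47 (0.085 to 0.209). For siNTC it was 2 of 4 with si45 (0.075 to 0.184). It was 1 of 4 with si46 (0.039 to 0.112) and with si47 (0.019 to 0.114). All these r were positive, and the main fit had no replicate block. Alternatives were DESeq2 1.42.0, limma-voom (limma 3.58.1), other size factors and filters, only the groups compared, a replicate block, a threshold of 0.01 and leaving out each library.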

Additional observations from a re-analysis of the deposited data

Results flagged for a closer look

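In 184 groups of 4 libraries (total counts and the CPM of the named genes other than MYC, whose counts were too low), 6 held 1 library far from the other 3, by a gap past Dixon's 95% critical value. Chance gives about 1 in 20, here 9.2 groups. For TPX2 it was replicate 3 of si45, at 121 CPM beside 79.4 to 85.1 CPM. MYCNOS in si46 replicate 2 was at 309 CPM against 242 to 244 CPM. FNTB, which overlaps MAX on the opposite strand, was at 17.3 CPM in si45 replicate 3 against 20.6 to 21.1 CPM. MLXIPL in si47 replicate 1 was at 2.83 CPM against 4.87 to 5.25 CPM, and MLXIP in si46 replicate 2 at 81.5 CPM against 94.2 to 95.8 CPM. MRPL32 in siNTC replicate 2 was at 20.2 CPM against 14.4 to 14.7 CPM. None of these genes is a member, and none of the 8 tested members had such a library.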

How the results depend on the processing

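Members past the threshold numbered 0, 1, 2 and 2 under si45, si46, si47 and in the mean contrast. Of all 14193 genes tested, 190, 482, 1382 and 1014 passed there. With the replicate block the members numbered 1, 4, 4 and 4, beside 577, 1073, 2198 and 1817 of all 14193 genes. At an adjusted p under 0.01 the members were 0 under si46, 1 under si47 and 1 in the mean contrast. Under si46 the members passing were 0 in limma-voom (369 of all 14193 genes) and 2 with no low-count filter (690 of 28981). With only the groups compared 3 members passed under si46 (631 of all 13287 genes). Without replicate number 3 in all groups, added after the data were seen, si45 had 1 member (379 of all 14343 genes). Without 1 library the member counts ran from 0 to 2 under si46, 1 to 3 under si47 and 0 to 3 in the mean contrast. Over all genes the calls ran from 252 to 579, 932 to 1664 and 629 to 1388 in the same order. The member counts between siRNAs were 0 throughout. The cause of these shifts was not tested.

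The block added MAX in the mean contrast (edgeR adjusted p = 0.0209), under si46 (0.0349) and under si47 (0.0424), MXD3 under si45 (0.0404) and si46 (0.0258), and MYCN in the mean contrast (0.0090), under si46 (0.0244) and under si47 (0.0128). Over all genes it raised the calls of the mean contrast from 1014 to 1817, and among the MYC and MYCN targets from 2 higher and 1 lower to 5 and 6. The labels do not say what a number marks.

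Signs turned only for values near 0. For MLX in the mean contrast the log2 fold change was 0.0066 in limma-voom, 0.0024 with upper-quartile factors, 0.0021 with no filter, 0.0072 with at least 10 counts in every library and 0.0027 with the block. With replicate number 3 left out it was -0.0032 for MLX under si45, and -0.0052 and -0.011 for MGA under si46 and si47. Without 1 library MLX ran from -0.023 to 0.0999 under si45, -0.012 to 0.116 under si46, -0.101 to 0.027 under si47 and -0.045 to 0.081 in the mean contrast. MGA ran from -0.044 to 0.061 under si46, -0.038 to 0.062 under si47 and -0.067 to 0.032 in the mean contrast. MNT ran from -0.135 to 0.095 under si46, -0.142 to 0.088 under si47 and -0.197 to 0.033 in the mean contrast. MXI1 ran from -0.032 to 0.14 under si45 and -0.0080 to 0.053 in the mean contrast. A value with no call does not show that a gene was unchanged. In simulation a change of 0.5 on the log2 scale was often missed, but its genes were drawn at random from all those tested. That rate is therefore not the members' own. In the mean contrast the 95% intervals were -0.17 to 0.16 for MLX and -0.19 to 0.14 for MGA. They were -0.31 to 0.14 for MNT and -0.18 to 0.21 for MXI1, and none of these reached 0.5 in either direction.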
